A study of Mus musculus with 28 samples.

Results

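The effect of phenobarbital on the livers of male B6C3F1 mice was measured on two-colour Agilent arrays loaded with the lower (1X) of 2 cDNA inputs. The 8 arrays titled as phenobarbital against control at 1X were taken, out of 28 arrays in all, and exposure and mouse of each dye channel were read from the channel source names. Each array carried 1 exposed and 1 control liver. Group 1 held 3 mice given phenobarbital in drinking water, at 0.05% per the labels of the same mice's one-colour arrays, for about 4 weeks, and group 2 held 3 control mice given water alone. Every mouse was of the same strain and sex with a labelled age of 42 days, and no genetic change was labelled. All livers had been stored as formalin-fixed, paraffin-embedded blocks for 16 years, so both groups carried fixed RNA, which was amplified as cDNA and labelled chemically. The series asked how such archived tissue can be prepared for this platform. The mouse was the replicate (n = 3 per group), each mouse being on 2 or 3 of the 16 channels and on both dyes.

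Phenobarbital is the textbook activator of the constitutive androstane receptor (CAR, gene Nr1i3) in hepatocytes. It acts without binding the receptor, which then moves into the nucleus and, with the related receptor PXR, raises transcription of cytochromes P450, their electron donor Por and conjugating enzymes. CAR is also known to compete with other regulators for shared coactivators, among them those that drive gluconeogenesis and fatty acid oxidation in the fasted liver.

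The labels conflict on part of the arrays. The free-text descriptions name another mouse than the channel source names on arrays 3, 5, 6, 7 and 8, and opposite dyes on arrays 4 and 8. On all 8 arrays the ratios of Cyp2b10, Cyp2c55 and Gstm3 ran in the direction of the source names. Each channel's deviations from the mean of its exposure and dye were set against the mice of its source-named exposure on one-colour arrays (mean of both inputs). In 16 of 16 channels they correlated best with the source-named mouse (across 7346 genes that are not independent, a description). On arrays 4 and 8 the description's mouse was of the other exposure and was not among those compared. With the description's mice on the 6 arrays whose dyes agree, 524 genes passed the threshold, 281 higher and 243 lower, with a median spread between mice of 0.11 (log2), against 0.15 for the source names on the same arrays. With the description's mice and dyes on all 8 arrays none passed. Source names are used below.

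Between 14.8% and 23.1% of probes were well above background in the Cy5 channels and between 21.9% and 31.5% in the Cy3 channels. Per mouse the share averaged 21.9% ± 3.22 in phenobarbital mice and 23.1% ± 0.544 in control mice (SD, n = 3 each), with an exact permutation p of 0.6 (two-sided, the smallest possible being 0.1). No spot was saturated. Of 14 hepatocyte markers all were above background in all 16 channels. The number of mice and arrays limits the precision, and the 95% interval of a fold change reached, at the median, 0.28 (log2) to either side.

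A gene was tested where its probe was well above background in every channel of at least 1 exposure group, which held for 7357 of 37074 gene names on the array, 5050 of them with a gene symbol. Fold changes are log2 of phenobarbital over control, from values per mouse balanced over both dyes. At an adjusted p under 0.05 (limma, Benjamini-Hochberg over all genes tested) 84 genes differed, or 1.14%. Of these, 70 were higher in phenobarbital mice (0.951%) and 14 were lower (0.190%). At an unadjusted p under 0.05 there were 1042 genes.

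The higher and lower sides differed in size. The 70 higher genes had a median of 1.01 and a range of 0.50 to 2.70, with 36 of them at 1 or more and 34 below 1, which is called modest here. The 14 lower genes had a median of -0.76 and a range of -1.31 to -0.60, with 2 at -1 or beyond (0.0272% of the genes tested) and 12 modest (0.163%). These sizes depended on the signal used: with the scanner's processed signals 52 of the same 70 genes were at 1 or more and 9 of the same 14 at -1 or beyond, and with the log ratios of the series matrix 53 and 9. Over all genes tested the median was 0.00 and the middle part of the distribution (25th to 75th percentile) ran from -0.12 to 0.12.

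Size and call were closely tied. No gene with an absolute log2 fold change under 0.25 was called among 5721, and 1 was called among 1192 between 0.25 and 0.5. The called share was 45 of 345 between 0.5 and 1, 34 of 93 between 1 and 2, and 4 of 6 at 2 or more. All 84 called genes had the same sign on all 8 arrays and in both dyes, and none had overlapping groups. Of all genes tested, 18.8% had groups without overlap.

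**Figure D1:**
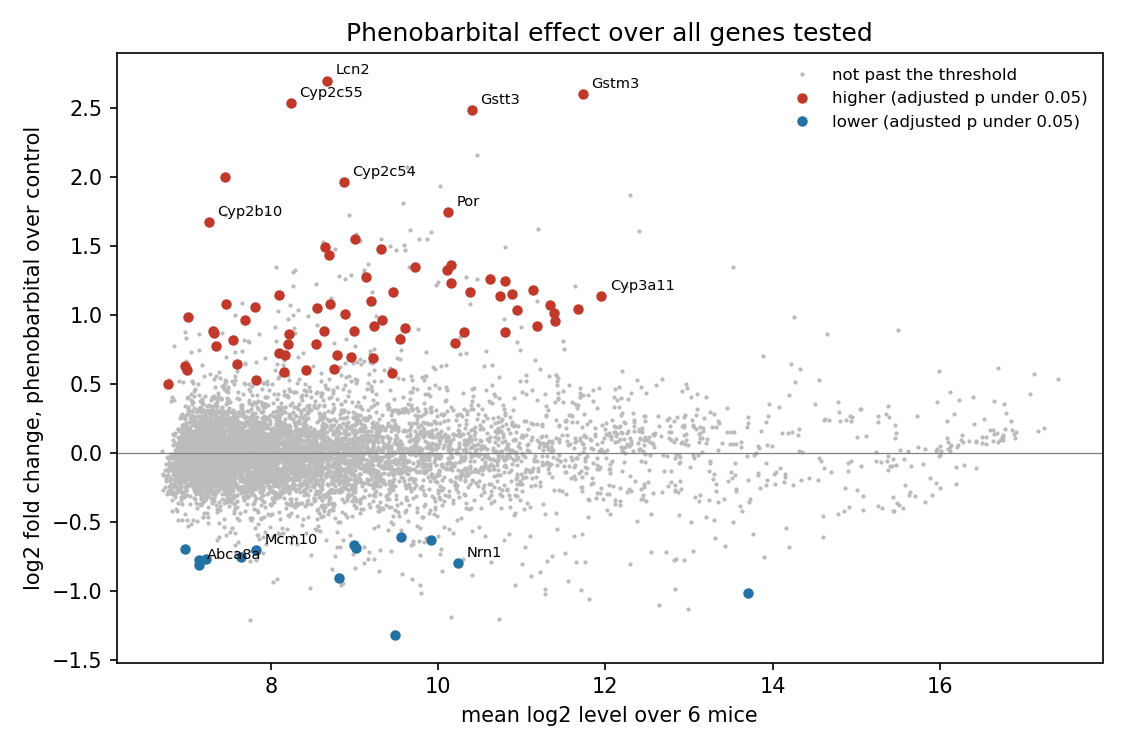
Each point is 1 of the 7357 genes tested, with its mean log2 level over the 6 mice on the x axis and its log2 fold change, phenobarbital over control, on the y axis. Red points are the 70 genes higher and blue points the 14 genes lower at an adjusted p under 0.05. The red points reach 2.70 and the blue points -1.31.

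The counts depended on single mice. Without phenobarbital mouse 1, 177 genes passed (128 higher, 49 lower). Without phenobarbital mouse 2 the count was 53 (50 higher, 3 lower), and without phenobarbital mouse 3 it was 24, all higher. Leaving out control mouse 1 left 13 genes (12 higher, 1 lower), control mouse 2 left 28 (23 higher, 5 lower) and control mouse 3 left 53 (39 higher, 14 lower). Between these 6 fits, 12 of the 84 genes passed every time, all of them higher: Gstt3, Gstm3, Cyp2c54, Cyp2c55, Por, Cyp2c50, Cyp3a11, Cyp2c38, Gstm1, Aldh1a1 and the unnamed probes A_55_P2071906 and XM_003084505. Single arrays mattered less, with 57 to 124 genes past the threshold, but without array 5 the lower count was 42 and without array 6 the higher count was 46.

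**Figure D2:**
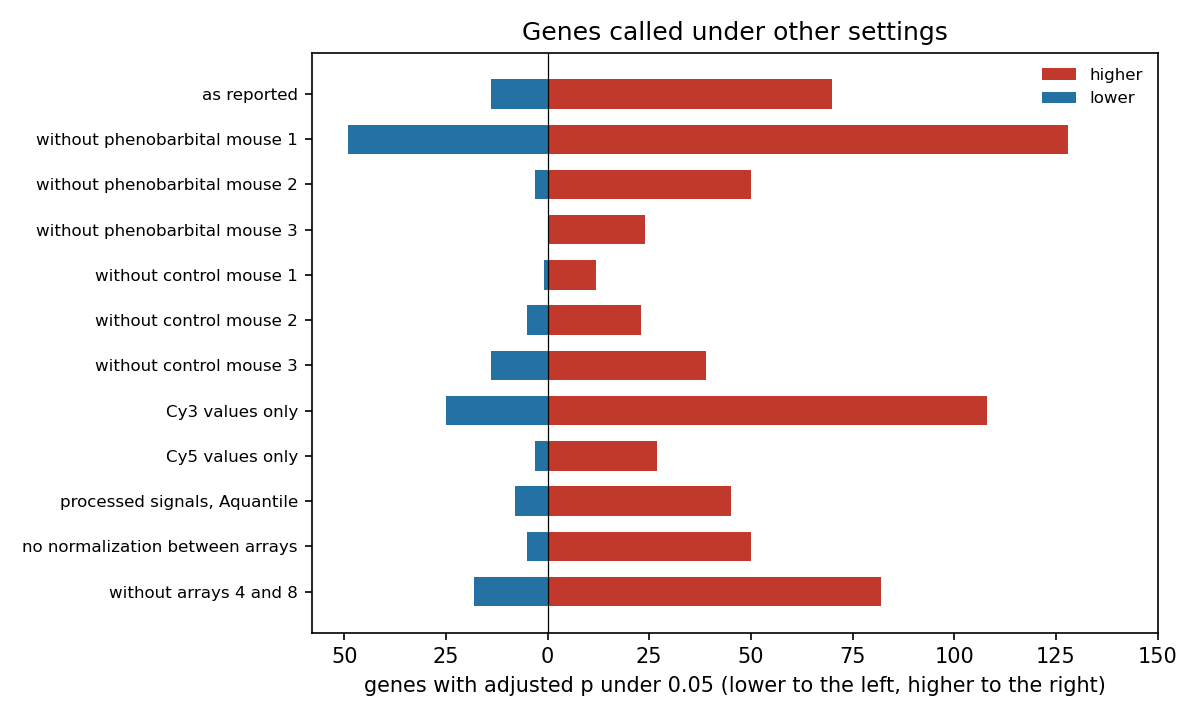
Bars give the number of genes past the threshold, lower genes to the left of 0 and higher genes to the right, in the fit as reported (70 higher, 14 lower) and in 11 other settings. The higher side keeps at least 12 genes in each setting drawn, while the lower side holds 0 genes without phenobarbital mouse 3 and 49 without phenobarbital mouse 1.

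Of the 14 lower genes, 7 had a gene symbol, 4 an accession or clone name only, and 3 were probes named only by a genomic interval. Abca8a, an ABC transporter of the lipid-transporting A subfamily, had log2 levels of 6.87, 6.58 and 6.74 in phenobarbital mice 1, 2 and 3, against 7.70, 7.49 and 7.45 in control mice 1, 2 and 3. Every exposed mouse lay below every control mouse. The fold change was -0.81 ± 0.12 (SE), adjusted p = 0.0211, or 57% of the control level, with 95% limits of -1.08 and -0.54. Abca8a belongs to a cluster of near-identical transporter genes, and its probe may also read a paralogue. In bulk tissue, fewer cells of a type and less RNA per cell cannot be told apart.

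Nrn1, which encodes neuritin, a small membrane-anchored protein best known from neurons, had levels of 9.95, 9.70 and 9.89 in phenobarbital mice, against 10.77, 10.75 and 10.40 in control mice. The gap of -0.79 ± 0.13 (SE, adjusted p = 0.0317) was narrowest towards control mouse 3. Col27a1, a fibrillar collagen chain, had 6.91, 6.57 and 6.78 in phenobarbital mice, against 7.54, 7.63 and 7.41 in control mice, a change of -0.77 ± 0.12 (SE), adjusted p = 0.0273. Of 15 extracellular matrix genes tested, 6 had a negative sign, and Col27a1 alone passed the threshold on the lower side.

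Mcm10, a factor that starts DNA replication, was at 7.62, 7.40 and 7.40 in phenobarbital mice, against a tight 8.18, 8.12 and 8.21 in control mice. It fell by 0.70 ± 0.10 (SE, adjusted p = 0.0224), while the replicative helicase subunits Mcm6 and Mcm7 rose. Slc17a2, of the SLC17 family of organic anion and phosphate transporters, had 6.72, 6.55 and 6.61 in phenobarbital mice and 7.53, 7.30 and 7.13 in control mice, a change of -0.70 ± 0.12 (SE), adjusted p = 0.0411. A second Slc17a2 probe gave -0.38.

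Dexi, named as a dexamethasone-induced transcript, had 8.73, 8.62 and 8.65 in phenobarbital mice, against 9.31, 9.51 and 9.17 in control mice, a change of -0.66 ± 0.11 (SE), adjusted p = 0.0352. Every exposed mouse lay below every control mouse.

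The 3 interval probes lie at chr2:67836003-67836461, chr19:5834117-5835940 and chr8:26345571-26346095 in the array's own names (the file headers give build mm9, for which no annotation was used here). The chr2 probe had 9.05, 8.81 and 8.61 in phenobarbital mice, against 10.44, 9.66 and 10.31 in control mice. With the median signals this was the furthest fall of all genes tested, at -1.31 ± 0.21 (SE), adjusted p = 0.0282. The chr19 probe, with a high level throughout, had 13.41, 13.09 and 13.08 in phenobarbital mice and 14.06, 14.27 and 14.30 in control mice, a change of -1.01 ± 0.13 (SE), adjusted p = 0.0159. These were the 2 called genes at -1 or beyond on the lower side.

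The chr8 probe changed by -0.75 ± 0.12 (SE), adjusted p = 0.0269. The named-by-accession probes AK076101, NM_184052, AK041477 and BC024137 changed by -0.90, -0.76, -0.69 and -0.60, with adjusted p-values of 0.0176, 0.0317, 0.0372 and 0.0317. Interval probes made up 734 of the genes tested and 3 of the 14 lower ones (0.409% of those tested), while genes with a symbol gave 7 of 5050 (0.139%). On the higher side 2 interval probes passed, at chr9:78107225-78118850 (1.07) and chr8:74820025-74833350 (0.59).

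**Figure D3:**
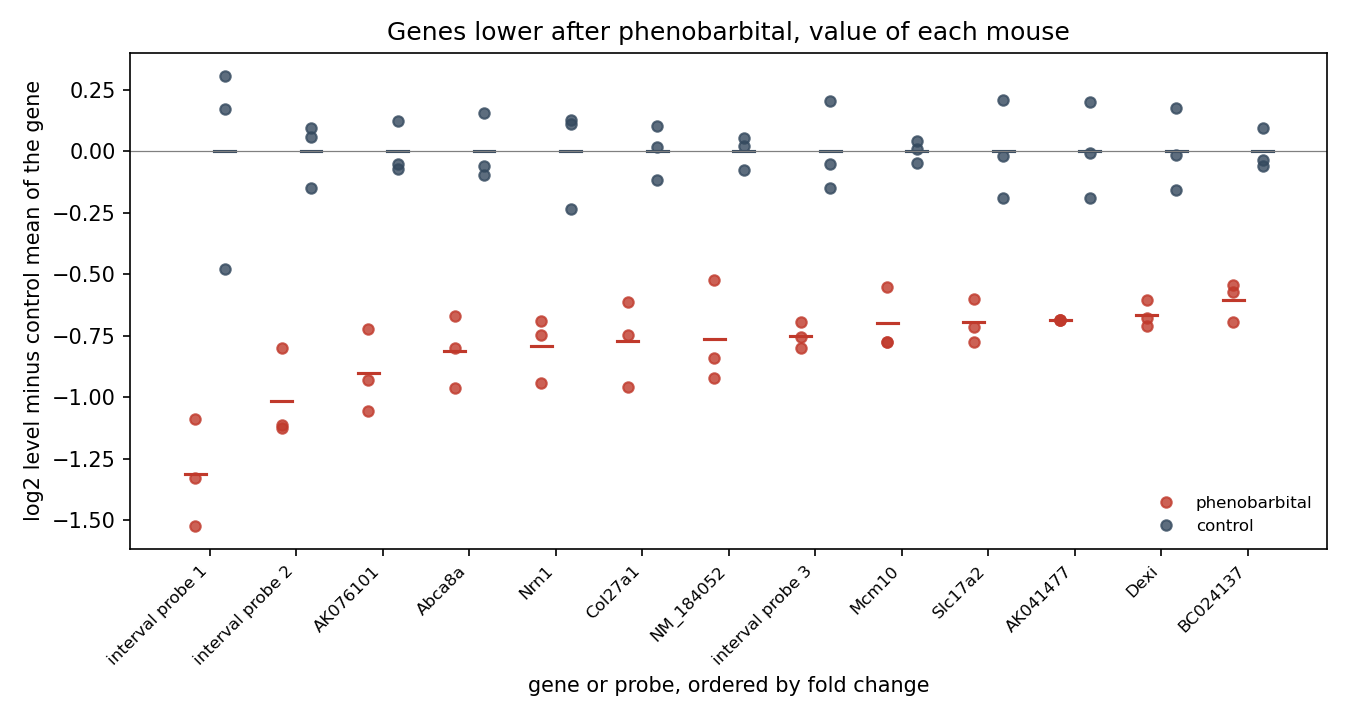
Points are the log2 levels of single mice minus the control mean of the same gene, for 13 of the 14 genes past the threshold on the lower side, with 3 phenobarbital mice (red) left of 3 control mice (dark) and bars at the group means. Interval probes 1, 2 and 3 are those on chr2, chr19 and chr8. No red point reaches a dark point of the same gene.

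Signal limits apply to 4 of the 14. In the phenobarbital channels Abca8a, Col27a1 and NM_184052 were well above background in 4 of 8 channels and Slc17a2 in 3 of 8, so these genes entered the test through the control group alone. The other 10 were above background in all 16 channels. Of the 70 higher genes, 61 were above background in all 16 channels and the others entered through the phenobarbital group alone. Of all genes tested, 189 entered through the phenobarbital group alone and 1330 through the control group alone. With the scanner's processed signals in place of the median signals, the fold changes of Abca8a, Col27a1 and Slc17a2 were -2.02, -2.05 and -1.99.

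None of the 14 passed in every fit with 1 mouse left out. Without phenobarbital mouse 1, 13 of them passed. Without phenobarbital mouse 2 only the chr19 probe and AK076101 passed, and without phenobarbital mouse 3 none did. Without control mouse 1 the chr19 probe alone passed, without control mouse 2 the chr2 probe alone, and without control mouse 3 9 of the 14.

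Below the called genes lay a larger set of lower values. At a fold change of -0.75 or beyond there were 51 genes, of which 8 were called, 21 had an adjusted p under 0.10 and 33 had no overlap between groups. Over all genes tested, 701 were lower without overlap (9.53%) and 684 higher. Between an adjusted p of 0.05 and 0.10 there were 43 further lower genes, 27 with a symbol, and 56 higher ones, 43 with a symbol.

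A few lower genes just outside the threshold are given here, chosen after their values were seen and not as a theme. Acly, which makes cytosolic acetyl-CoA for fat synthesis, had 9.05, 8.75 and 8.74 in phenobarbital mice, against 9.83, 9.72 and 9.30 in control mice, a value of -0.77 ± 0.16 (SE), adjusted p = 0.0686. The groups did not overlap.

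Ppargc1a, a coactivator of gluconeogenic genes, had 6.95, 6.69 and 6.73 in phenobarbital mice, against 7.22, 7.27 and 7.42 in control mice, a value of -0.51 ± 0.11 (SE), adjusted p = 0.0852. It was above background in 5 of 8 phenobarbital channels and entered the test through the control group alone. Mup21, a major urinary protein gene with many near-identical copies, had 12.44, 12.09 and 12.02 in phenobarbital mice, against 12.96, 13.04 and 12.70 in control mice, a value of -0.72 ± 0.14 (SE), adjusted p = 0.0614. Saa4, an apolipoprotein of the serum amyloid A family, stood at -0.93 with an adjusted p of 0.0508.

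Gene lists for liver metabolism gave almost no call on the lower side, while most members had values below 0. The 14 hepatocyte markers had a median of -0.16, with 12 negative and none called, among them Ttr, transthyretin, at -0.61 (adjusted p = 0.102) and Alb, albumin, at -0.39 (adjusted p = 0.117). Their part in the values of these lists was not tested. Of 31 PPAR alpha and fatty acid oxidation genes tested, none was higher past the threshold, 27 had a negative sign and the median was -0.14. Of 22 genes of fatty acid and triglyceride synthesis none passed, 15 were negative and the median was -0.23. Scd1, the desaturase that makes oleate, had a value of -0.63 ± 0.21 (SE, adjusted p = 0.235).

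Of 21 genes of gluconeogenesis and glucose handling none passed, 15 were negative and the median was -0.23. Pck1, the gluconeogenic PEP carboxykinase, had 9.47, 9.57 and 9.09 in phenobarbital mice, against 10.48, 9.13 and 10.48 in control mice. Control mouse 2 lay far below the other controls and within the phenobarbital range. Igfbp1, an insulin-repressed secreted protein, had 8.65, 9.41 and 8.55 in phenobarbital mice and 10.24, 8.64 and 10.27 in control mice, with the same low control mouse. Their values were -0.66 and -0.85, with adjusted p-values of 0.428 and 0.416.

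Hepatocyte function genes showed the same shape. Of 40 urea cycle, amino acid and periportal genes none passed, 31 were negative and the median was -0.14, with Bhmt, a methionine cycle enzyme, at -0.59 (adjusted p = 0.117). Of 30 secreted proteins and apolipoproteins none passed (23 negative, median -0.18), and of 68 genes of oxidative phosphorylation none passed (57 negative, median -0.11). Among 21 male-biased liver genes none passed, 13 were negative and the median was -0.14, with Mup21 and Hsd3b5 at -0.72 and -0.68 but Mup2 at 0.89. In the fits with 1 mouse left out, these 7 lists had at most 2 members lower past the threshold.

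**Figure D4:**
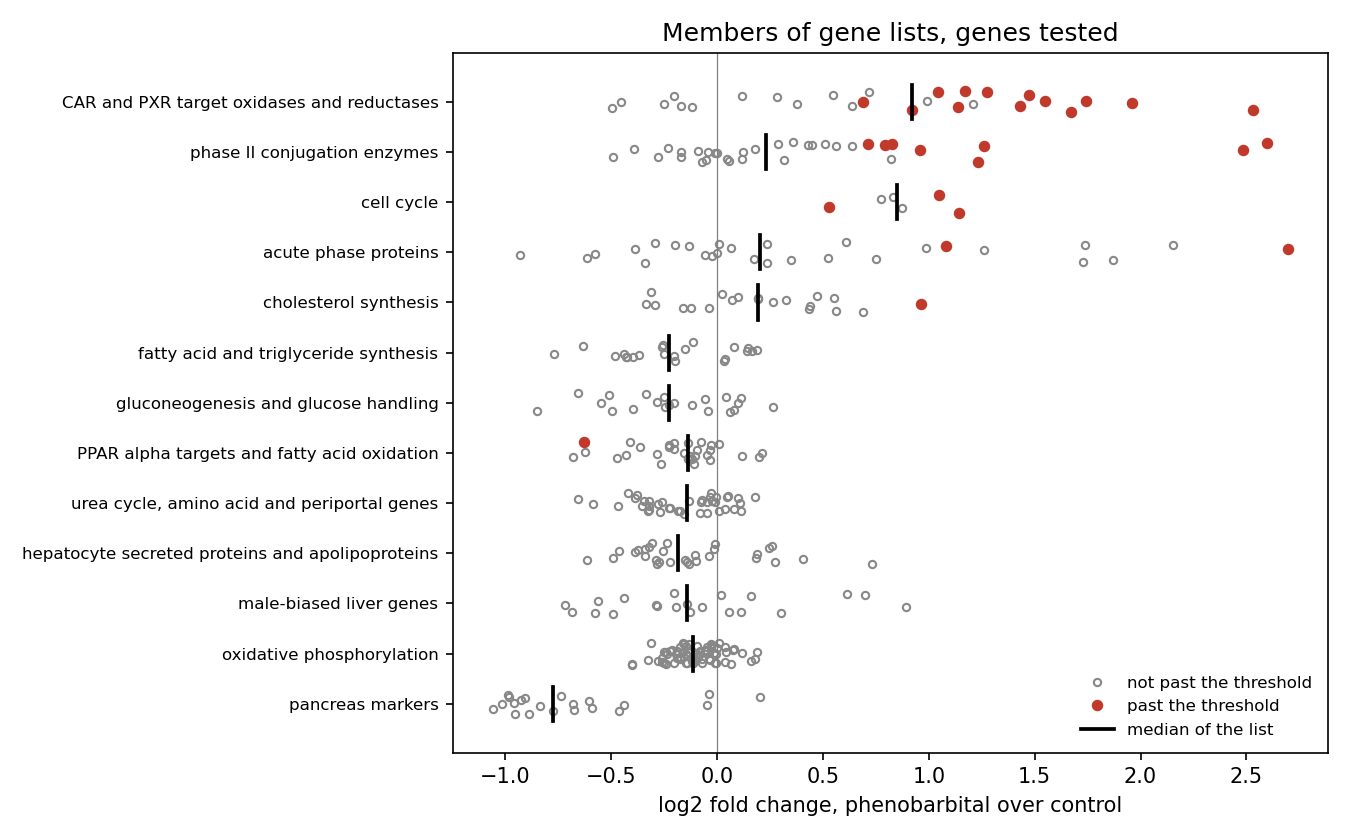
Each circle is 1 gene tested of a list, at its log2 fold change, phenobarbital over control, on the x axis. Filled red circles passed the threshold and black bars are list medians. The oxidase and reductase list has its median at 0.92, the metabolic lists have medians between -0.23 and -0.11, and the pancreas markers have the lowest median, -0.78, with no red circle.

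Markers of pancreas were abundant in these liver blocks. Of 29 markers 28 were on the array, 21 were tested and 20 were above background in all 16 channels, led by Ctrb1, Amy2a5 and Clps, which encode digestive enzymes or their cofactor. Iapp, Reg2 and Reg3b were above background in no channel. Their summed level (linear scale) was 40039, 70231 and 227850 in phenobarbital mice 1, 2 and 3, against 50518, 196950 and 267180 in control mice 1, 2 and 3.

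The high and low mice of the pancreas markers crossed the groups. Phenobarbital mouse 3 and control mice 2 and 3 were high, and the other 3 mice were low. The markers' median fold change was -0.78 with none called, and their median spread between mice was 1.34 (log2), against 0.15 for all genes tested. Of the 51 genes at -0.75 or beyond, 11 were pancreas markers and none of these lacked overlap. Elastase Cela1, the lowest of them, had 10.09, 10.84 and 12.88 in phenobarbital mice, against 10.57, 12.91 and 13.51 in control mice (adjusted p = 0.614). The part of pancreas RNA in the lower genes was not tested.

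No other cell type marker passed the threshold. Summed red cell markers lay between 5430 and 8816 in phenobarbital mice and between 4084 and 10959 in control mice. Stellate cell and fibroblast markers lay between 5723 and 6638 in phenobarbital mice and between 4796 and 5665 in control mice, without overlap, and none of 8 tested was called. Of the neutrophil, lymphocyte and muscle markers 1, 1 and 0 genes could be tested. Adipose markers lay between 8930 and 11704 in phenobarbital mice and between 11794 and 14370 in control mice, also without overlap. Only 2 of these 10 markers were tested, and neither was called. The most abundant of them were Car3, Lpl and Cidec, while Adig, Plin1 and Lep were above background in no channel. This sum is therefore no measure of adipose tissue.

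The raised genes were led by drug metabolism. Over all genes tested, 0.951% were higher past the threshold. Of 27 CAR and PXR target oxidases and reductases tested, 13 were higher past it and none lower, with a median of 0.92 against 0.00 over all genes tested. Among 34 enzymes of phase II conjugation 8 were higher past it and 0 lower, and the median was 0.23. The study's design makes these the known targets of the agent, so the lists are no independent evidence of the response. With 1 mouse left out these counts ranged from 7 to 13 and from 3 to 8, each lowest without control mouse 1.

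Cyp2c55 had levels of 9.97, 9.38 and 9.18 in phenobarbital mice, against 6.83, 6.95 and 7.14 in control mice, a 5.79-fold rise (2.53 ± 0.20 (SE), adjusted p = 0.00124). Por, which passes electrons to all microsomal P450 enzymes, had 10.77, 11.29 and 10.93 in phenobarbital mice, against 9.39, 9.13 and 9.24 in control mice, a 3.35-fold rise (1.74 ± 0.15 (SE), adjusted p = 0.00202). Both pairs of groups were far apart, with the exposed mice within 1 log2 unit of each other.

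Cyp2b10, the classical CAR target, had 8.61, 8.25 and 7.42 in phenobarbital mice, against 6.44, 6.41 and 6.42 in control mice. It rose by 1.67 ± 0.26 (SE, adjusted p = 0.0269). Its probe was well above background in all 8 phenobarbital channels but in 1 of 8 control channels, and the size of the rise depended on the signal used, with 3.77 from processed signals and 3.86 from the series matrix. Cyp2c54, Cyp2c38 and Cyp2c50 rose by 1.96, 1.47 and 1.43, and Cyp2a4, a female-biased steroid hydroxylase, by 1.55. Members of the Cyp2c, Cyp2a, Cyp3a and Gstm families are similar in sequence, and a probe can read more than 1 of them.

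Gstm3 and Gstt3 are glutathione transferases, and both passed in all 6 fits with a mouse left out. Gstm3 had 12.84, 12.91 and 13.33 in phenobarbital mice, against 10.37, 10.30 and 10.62 in control mice, a 6.06-fold rise (2.60 ± 0.15 (SE), adjusted p = 0.000232). Gstt3 had 11.47, 11.77 and 11.69 in phenobarbital mice, against 9.12, 9.03 and 9.33 in control mice, a 5.59-fold rise (2.48 ± 0.12 (SE), adjusted p = 0.000172). Gstm1, Gstm2, Gstm4, Gstt1, Ugt2b34 and Sult1d1 were the other members that rose.

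With the median signals, the largest rise of all was that of Lcn2, a siderophore-binding protein of the acute phase response. With processed signals Lcn2 was at 3.38, behind A_55_P2071906 (3.89), Cyp2b10 (3.77) and Cyp2c55 (3.59). With the median signals Lcn2 had 8.98, 10.81 and 10.29 in phenobarbital mice, against 7.53, 6.76 and 7.70 in control mice, a 6.48-fold rise (2.70 ± 0.44 (SE), adjusted p = 0.0307). Phenobarbital mouse 1 was the lowest of the exposed mice, and the call held in 1 of the 6 fits with a mouse left out, the one without that mouse. Apcs, a pentraxin, was the other of 28 acute phase genes to pass the threshold (1.08). Of the 28, 17 had a positive and 11 a negative sign, and the median was 0.20. Saa4, given above, was the lowest of them at -0.93. Saa1, a serum amyloid A protein, stood at 2.15 with an SE of 0.65 and an adjusted p of 0.182, and its levels ran from 8.07 to 10.12 in the control mice. In the fits with a mouse left out, 6 acute phase genes passed when phenobarbital mouse 1 was absent, and none when phenobarbital mouse 3, control mouse 1 or control mouse 2 was.

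Cyp3a11, the main PXR and CAR responsive 3a enzyme, had 12.57, 12.64 and 12.35 in phenobarbital mice, against 11.50, 11.38 and 11.27 in control mice, a rise of 1.14 ± 0.12 (SE), adjusted p = 0.00606. Among panel genes that missed the threshold, Cyp2c29 stood at 0.99 (adjusted p = 0.0547), Alas1, the first enzyme of heme synthesis, at 1.48 (0.0818), Ephx1, microsomal epoxide hydrolase, at 0.82 (0.0986), Cyp2c37 at 0.64 (0.123) and Cyp1a2 at 0.55 (0.0711), each without overlap between groups. Nr1i3 itself was at 0.03 with 95% limits of -0.28 and 0.34. The bile acid enzymes Cyp7a1 and Cyp8b1, the Cyp2b family member Cyp2b9 and the cyclin Ccnd1 were on the array but too dim to be tested, with 3, 7, 1 and 5 of 8 phenobarbital channels and 1, 7, 0 and 2 of 8 control channels above background.

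Among the modest rises were genes of several functions. Hmgcs1, the cytosolic HMG-CoA synthase of cholesterol synthesis, had 9.94, 9.73 and 9.77 in phenobarbital mice, against 8.82, 9.01 and 8.71 in control mice, a rise of 0.97 ± 0.12 (SE), adjusted p = 0.0133. It was the only one of 20 cholesterol synthesis genes to pass (median 0.19), with Sqle at 0.69 and Fdft1 at 0.55 just outside (adjusted p = 0.0917 and 0.0508). Gadd45b, a stress-response gene and known early CAR target, had 7.34, 7.63 and 7.53 in phenobarbital mice, against 6.43, 6.39 and 6.71 in control mice, a rise of 0.99 ± 0.13 (SE), adjusted p = 0.0159, with 2 of 8 control channels above background. With processed signals its value was 2.42, and with the series matrix 2.33, so it was modest with the median signals alone.

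Nup205, a nuclear pore subunit, rose by 0.77, Pdp2, a phosphatase that activates pyruvate dehydrogenase, by 0.86, and Atg7, which activates the autophagy conjugation system, by 0.73. Nup205 was above background in 7 of 8 control channels and entered the test through the phenobarbital group alone. Sult1d1 (a sulfotransferase), Ugt2b34 (a glucuronosyltransferase) and Dio1, the deiodinase that converts and clears thyroid hormone, rose by 0.79, 0.82 and 0.71. Dio1 had 9.19, 9.19 and 9.07 in phenobarbital mice, against 8.55, 8.44 and 8.34 in control mice, an adjusted p of 0.0211. Other Dio1 probes gave 0.46 and 0.35, and a second Atg7 probe, above background in no channel, gave 0.01.

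Transporters of drugs and bile acids gave too few calls to describe them as a group. Of 15 tested, 1 rose and 1 fell, against 0.951% higher and 0.190% lower over all genes tested. These were Abcc2, the canalicular exporter of conjugates, at 0.79 (9.03, 8.93 and 8.85 in phenobarbital mice, against 8.09, 8.40 and 7.96 in control mice, adjusted p = 0.0317), and Slc17a2 as given above. The list's median of -0.02 changed sign in 13 of 32 other settings. Srxn1, a sulfiredoxin and NRF2 target, Trib3, a stress-induced pseudokinase, and Nr1d2, a clock repressor, rose by 0.69, 0.87 and 0.60, as the only members of their lists (15, 16 and 8 tested) past the threshold. Nr1d2 was above background in 6 of 8 control channels and entered the test through the phenobarbital group alone.

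A few genes of proliferation were higher, while Mcm10, not on the cell cycle list, was lower (-0.70). Only 6 of 40 cell cycle genes were bright enough to be tested. Of these, 3 were higher past the threshold (0.951% over all genes tested), each above background in all 16 channels. Birc5, survivin, had 8.79, 8.31 and 8.90 in phenobarbital mice, against 7.23, 7.74 and 7.60 in control mice, a rise of 1.14 ± 0.19 (SE), adjusted p = 0.0309. Mcm6 had 9.34, 8.78 and 9.13 in phenobarbital mice and 7.78, 8.25 and 8.08 in control mice (1.05, adjusted p = 0.0317), and Mcm7 8.12, 8.04 and 8.11 in phenobarbital mice and 7.55, 7.53 and 7.61 in control mice (0.53, adjusted p = 0.0376). Cdc20, Mki67 and Ccnb1 entered the test through the phenobarbital group alone, with 1, 7 and 2 of 8 control channels above background, and stood at 0.83, 0.87 and 0.78, outside the threshold. Of the list, 4 genes passed when phenobarbital mouse 2 was left out, 1 when mouse 1 of that group was, and 0 when its mouse 3 or any 1 control mouse was.

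Histone genes were a group noticed only after the values were seen. Of 54 on the array 29 were tested, 11 were higher past the threshold, none was lower past it, and 22 were higher without overlap. Over all 7357 genes tested, 70 were higher past the threshold (0.951%) and 684 were higher without overlap. Their median was 0.60. The risen ones were 8 H2A genes and 3 H3 genes. None of 3 H2B, 7 H4 and 2 H1 genes passed, but H2bc3 stood at 1.03 without overlap (adjusted p = 0.0507), and the difference between classes was not tested. H2ac22 had 10.62, 10.10 and 10.48 in phenobarbital mice, against 8.71, 9.04 and 9.41 in control mice, a rise of 1.35 ± 0.20 (SE), adjusted p = 0.0211. H3c4 had 11.06, 10.51 and 10.92 in phenobarbital mice, against 9.13, 9.48 and 9.80 in control mice (1.36), and H2ac12 11.94, 11.45 and 11.79 in phenobarbital mice, against 10.21, 10.57 and 10.86 in control mice (1.18). In all 11 phenobarbital mouse 2 was the lowest exposed mouse and control mouse 1 the lowest control.

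Histone genes of a class are almost identical in sequence, so the 11 probes are not separate observations. With phenobarbital mouse 1, 2 or 3 left out the count was 6, 13 or 0, and with control mouse 1, 2 or 3 left out it was 0, 0 or 9.

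**Figure D5:**
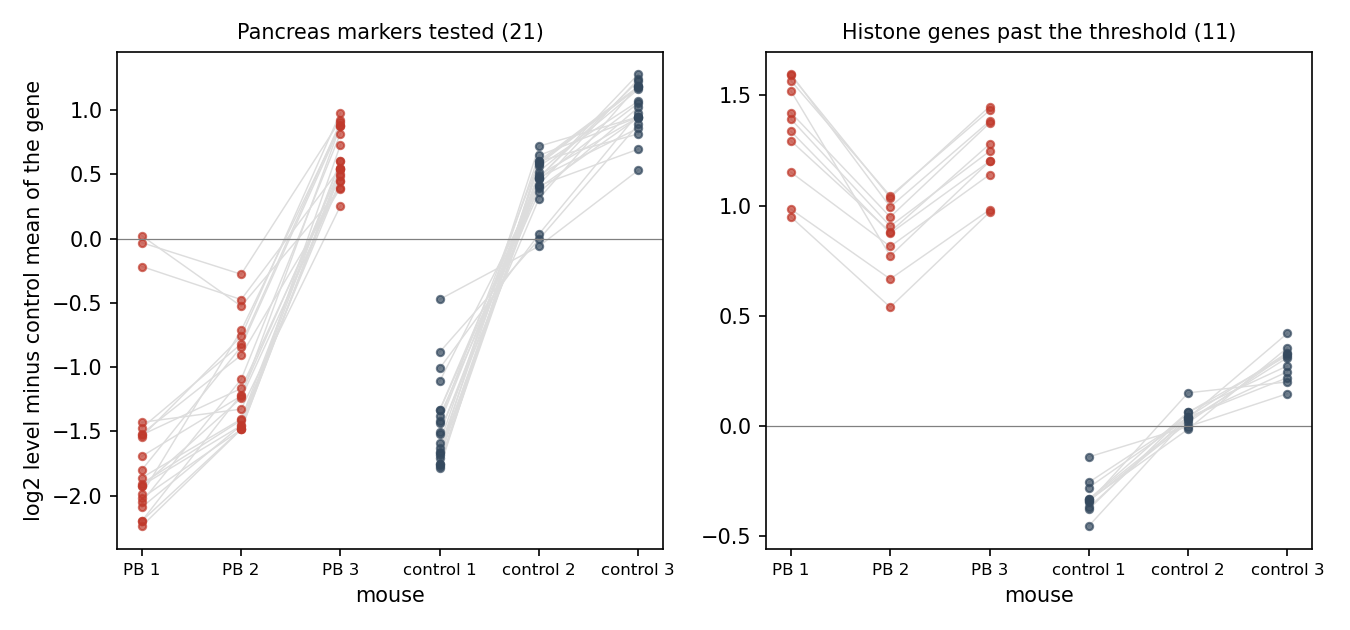
Points are log2 levels of single mice minus the control mean of the gene, on the y axis, with phenobarbital mice 1 to 3 left of control mice 1 to 3, and grey lines join the values of a gene within a group. The 21 pancreas markers (left) are all those tested, and they range widely within both groups and overlap. The 11 histone genes (right) are only those past the threshold, and they lie above every control value in all 3 phenobarbital mice. No called gene had overlapping groups, so the choice of genes sets this separation. Of all 29 histone genes tested, 22 were higher without overlap.

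Promoters are shown for 2 H2A genes that moved together, for Cyp3a11 and for Abca8a as a fallen gene. They run from 250 bases before to 50 after the RefSeq start in build GRCm38.p6 (60 of 65 called symbols matched). Positions are chr13:21787199-21787498 for H2ac22, chr13:22035594-22035893 for H2ac12, chr5:145879805-145880104 for Cyp3a11 and chr11:110095888-110096187 for Abca8a, all on the minus strand. Capitals mark matches, on either strand, to CCAAT (the box of many cell cycle and histone promoters), TATAAA (the letters of a TATA box, at any position in the window) and AGGTCA (the core element bound by nuclear receptors).
H2ac22: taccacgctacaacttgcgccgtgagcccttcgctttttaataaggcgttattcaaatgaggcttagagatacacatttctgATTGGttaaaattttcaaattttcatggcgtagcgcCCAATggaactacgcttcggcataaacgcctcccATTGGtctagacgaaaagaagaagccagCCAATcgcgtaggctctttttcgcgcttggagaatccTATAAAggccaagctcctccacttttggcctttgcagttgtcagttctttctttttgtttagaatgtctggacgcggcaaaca
H2ac12: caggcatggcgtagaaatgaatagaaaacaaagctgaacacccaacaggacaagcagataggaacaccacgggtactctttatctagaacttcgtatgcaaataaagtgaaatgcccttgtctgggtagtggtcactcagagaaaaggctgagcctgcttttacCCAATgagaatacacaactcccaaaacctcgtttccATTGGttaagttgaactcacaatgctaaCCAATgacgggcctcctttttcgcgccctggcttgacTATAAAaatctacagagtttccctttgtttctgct
Cyp3a11: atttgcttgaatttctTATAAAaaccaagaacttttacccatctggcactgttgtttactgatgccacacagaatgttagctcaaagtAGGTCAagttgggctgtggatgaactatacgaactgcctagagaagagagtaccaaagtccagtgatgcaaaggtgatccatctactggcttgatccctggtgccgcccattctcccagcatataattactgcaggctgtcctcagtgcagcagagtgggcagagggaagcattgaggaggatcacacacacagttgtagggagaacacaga
Abca8a: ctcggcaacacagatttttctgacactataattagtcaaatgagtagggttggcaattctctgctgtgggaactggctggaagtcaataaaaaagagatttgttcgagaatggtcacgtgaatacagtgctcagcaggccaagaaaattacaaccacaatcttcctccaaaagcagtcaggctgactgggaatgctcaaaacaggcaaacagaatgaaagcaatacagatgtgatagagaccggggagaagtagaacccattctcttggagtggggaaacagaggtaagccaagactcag

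The H2A windows hold 4 and 3 CCAAT matches and a TATAAA each, Cyp3a11 holds a TATAAA and an AGGTCA, and these letters are not in the Abca8a window. CCAAT was in 58.2% of 55 promoters of higher genes and in 85.2% of 27 of the histone genes tested, against 40.5% of 4088 promoters of genes tested and 37.9% of 27025 RefSeq promoters of this length. TATAAA was in 23.6%, 51.9%, 9.83% and 14.2%, and AGGTCA in 18.2%, 3.70%, 14.2% and 16.0%, in the same order. The 5 matched promoters of lower genes held CCAAT in 2 and neither other motif. These shares are a description of letters, and the histone genes that rose and were matched are part of the higher set.

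The fold changes were then compared between dyes, formats and inputs in the same 6 mice. Between Cy5 and Cy3 no gene differed past the threshold (0%; limma, 602 at an unadjusted p under 0.05), although without phenobarbital mouse 1 there were 3. Klhdc7b, with the smallest p, was at 0.85 in Cy5 and -0.14 in Cy3 (adjusted p = 0.108). With values of Cy3 alone 133 genes passed (108 higher, 25 lower), and with Cy5 alone, where fewer probes were above background, 30 (27 higher, 3 lower).

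Against the one-colour arrays at the same input, 4 of 7353 genes differed (0.0544%), all smaller on the two-colour arrays. The one-colour values were the scanner's processed signals, scaled per array, while the two-colour values were corrected median signals. Format and signal processing therefore cannot be told apart here. Cyp2b10 was at 1.67 on two-colour and 5.98 on one-colour arrays (difference -4.30, SE 0.31, adjusted p = 0.00139). Cdc20 was at 0.83 and 2.46 (difference -1.62, adjusted p = 0.0192). The one-colour arrays tested 18635 genes and called 30 (0.161%), 29 higher and 1 lower.

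Among the lower genes the one-colour values ran the same way without a call of their own for those named: -1.15 for Abca8a, -0.75 for Nrn1, -1.29 for Col27a1, -1.19 for Mcm10, -1.03 for Slc17a2 and -0.97 for Dexi, with adjusted p-values between 0.0691 and 0.434. The formats share mice and RNA, so these are values side by side and not a repeat in other animals.

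Against the two-colour arrays at 1.5X input 1494 genes could be compared and none differed past the threshold (0%; limma, 92 at an unadjusted p under 0.05). Of the 84 called genes, 26 were in that comparison. The 24 higher ones had a median of 1.16 at 1X and 0.59 at 1.5X, and the 2 lower ones -0.90 and -0.62. The Cy5 channels had 14.8% to 23.1% of probes well above background at 1X and 2.98% to 7.43% at 1.5X, and the part of this difference in these values was not tested. Gstt3 had the smallest p, with 2.48 at 1X and 0.75 at 1.5X (adjusted p = 0.235). Each set of arrays was on a slide of its own, so format, input and slide cannot be told apart.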

How the data were processed

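Per the file headers, the authors scanned the arrays and extracted them with Agilent Feature Extraction 11.0.1.1. The deposited files hold an intensity per spot, as median signals with local backgrounds and processed signals, log10 ratios of Cy5 over Cy3, and spot flags (other). The deposited series matrix holds log10 ratios for the two-colour arrays and processed signals for the one-colour arrays. Median signals were corrected with normexp (offset 50), normalized with loess (span 0.3) within and Aquantile between arrays in limma 3.58.1 (R 4.3.3), with values in log2. A mouse's value was the mean of its Cy5 and Cy3 means, and 1 probe per gene, the brightest on the one-colour arrays, was used. Phenobarbital was compared with control by lmFit and eBayes over 6 mice, threshold 0.05. Named genes were called genes with a symbol, no overlap and 1 sign in both dyes (up to 15 lower and 10 higher with the largest change, and 8 modest ones per side with the smallest p), a panel, and 2 to 4 members per list. The fit was tested on simulated data. With an assumed, larger gene-wise array effect it gave more false calls than the nominal share, and this test was not passed. With array effects reset after that failure to the median size estimated in these data, the share was near the nominal one. Adjusted p-values may therefore be too small for genes with large array effects. Some items are not reported here. Members and lists were chosen with earlier results of these data known. Replicates are labelled as mice. Alternatives are listed below. Figures used matplotlib 3.10.9.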

Additional observations from a re-analysis of the deposited data

Results flagged for a closer look

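The effect of phenobarbital on 4 genes differed between array formats at the same input by a test of the difference itself in the same 6 mice (limma, Benjamini-Hochberg over 7353 genes). Each was smaller on the two-colour arrays. Cyp2b10, the classical CAR target, differed by -4.30, with its two-colour probe above background in 8 of 8 phenobarbital and 1 of 8 control channels. The unnamed probe A_55_P2071906 was at 2.00 on two-colour and 4.71 on one-colour arrays, a difference of -2.71 (adjusted p = 0.00142), with 8 of 8 phenobarbital and 2 of 8 control channels above background. Cdc20, an activator of the anaphase-promoting complex, differed by -1.62, with 8 of 8 phenobarbital and 1 of 8 control channels above background. ENSMUST00000106680, an Ensembl transcript without a symbol here, was at 0.87 and 2.68, a difference of -1.81 (adjusted p = 0.0274). The one-colour values were processed signals and the two-colour values corrected median signals, so format and signal processing cannot be told apart. With processed signals on the two-colour arrays, Cyp2b10 was at 3.77 and A_55_P2071906 at 3.89. The part of dim control signal or of signal processing in these differences was not tested. In 35 series of 8 array ratios or shares no array stood apart by Dixon's criterion.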

How the results depend on the processing

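Of 84 genes past the threshold, the count became 53 with the scanner's processed signals (45 higher, 8 lower), 55 without normalization between arrays (5 lower), 133 with Cy3 values only (108 and 25), 30 with Cy5 values only (27 and 3), 320 with log ratios of 5 pairs of mice (207 and 113) and 208 with the series matrix's log ratios of these pairs (142 and 66). It became 524 with the description's mice on 6 arrays (281 and 243) and 0 with its mice and dyes on 8 arrays (0 and 0). Without a filter on dim probes 22 genes were lower. Alternatives chosen after seeing the data gave 183 genes at an adjusted p under 0.10 (126 and 57) and, after the test on simulated data, 129 with robust moderation of the spread (33 lower). Fold changes of the 84 kept their sign in each of these settings where they were fitted. Leaving out 1 mouse gave 13 to 177 genes (12 to 128 higher, 0 to 49 lower), and 1 array 57 to 124 (higher down to 46, lower up to 42). With the replicate number as a block 107 genes passed, 37 of them lower. Same-numbered mice correlated at 0.11, -0.14 and 0.47 (deviations from group means), so the numbers were not taken as pairs. The dye difference, 0 genes, became 3 without phenobarbital mouse 1 (range 0 to 3). The format difference, 4 genes, became 2 with the description's mice, 2 with the replicate block and 2 to 5 without 1 mouse. Nr1i3, near 0, changed sign with Cy5 only (-0.069), without phenobarbital mouse 2 (-0.0036) or control mouse 3 (-0.083), and without array 3 (-0.0097) or array 5 (-0.018), within a leave-one-out range of -0.083 to 0.159. The cause was not tested. Median signals of negative controls were 74 to 96 in Cy5 and 72.5 to 106.5 in Cy3. Local backgrounds were 63.5 to 67 in Cy5 and 23 to 30 in Cy3. The part of background in the number of lower genes was not tested.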

Other observations

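Several gene groups had values near those of all genes tested. Of 77 cytosolic ribosomal protein genes tested none passed, with a median of 0.04 and a range of -0.27 to 0.55. Of 22 proteasome genes none passed (median 0.09), nor did any of 37 coagulation and complement genes (median -0.04), although C3, the central complement component, stood at 0.61 with an adjusted p of 0.0634. Interferon-stimulated genes had a median of -0.02 with 13 tested and none called. Of 19 retinoid handling genes Aldh1a1, which oxidises retinal, rose (12.27, 12.05 and 12.25 in phenobarbital mice, against 11.26, 11.21 and 10.96 in control mice, 1.04). Pericentral genes did not move as a block: of 21 tested 3 rose, all drug-metabolism genes (Gstm3, Cyp2c38 and Aldh1a1), and the median of 0.03 changed sign in 5 of 32 other settings. The median of the interferon-stimulated genes changed sign in 2 of them.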
